A study of Anas platyrhynchos with 2 samples.

Results

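Stromal miRNAs of the duck duodenum were described through 10 mature arms from 6 hairpins, namely miR-140, miR-199, miR-214, miR-218, miR-455 and miR-490, out of 288 mature miRNAs listed for the tissue. The members were chosen by name, and every listed arm of these hairpins was kept. The grouping itself was proposed with results of these data known, because gga-miR-214, gga-miR-218-5p, gga-miR-455-5p and gga-miR-490-5p (the prefix marks a chicken name and is left out below) lay among the miRNAs with the lowest ratio of CT to CC. Ratios of CT to CC are therefore given as a description of these 4 arms and of their hairpin partners.

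The tissue was duodenum of female Jingjiang ducks, a domestic egg-laying breed, taken at 1 day of age. Of 20 ducks, part spent 8 h on the road, driven at speeds from 40 up to 70 km per h, and the controls stayed in the same kind of carrying case without being moved. Per the labels, the control tissue was normal duodenum and the transported tissue was duodenum with mucosal damage. There was 1 small RNA library for each group, and no source used here tells how many ducks were pooled in it. The columns are named CC and CT, read as control and transported from their last letter. No label spells these names out, and the direction relative to transport would reverse if the reading were wrong. CC and CT are used as names throughout.

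The libraries held 5772509 counts in CC and 5272666 in CT. Levels are given in CPM, counts per 1000000 counts of the table, which carry no term for length. All intervals are exact 95% intervals and cover counting error only. With 1 library per group there was no replicate check and no test of the conditions. CPM is a share of a library, so a lower level of a miRNA can also go with more RNA from other cells. In bulk tissue, fewer cells of a type, less RNA per cell and a larger share of other RNA cannot be told apart.

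A miRNA is cut from a hairpin whose 5p and 3p arms can each give a mature strand, and the bases 2 to 8 of that strand, the seed, select its target mRNAs. miR-199 and miR-214 are transcribed together in vertebrates from a long non-coding RNA on the strand opposite to a dynamin gene, and in mouse this transcript is active in embryonic mesenchyme. The other hairpins lie in introns of genes of several kinds in mammals. miR-140 lies in WWP2 and miR-455 in the collagen gene COL27A1, both known from cartilage. miR-218 lies in the axon guidance genes SLIT2 and SLIT3, and miR-490 in CHRM2, a muscarinic acetylcholine receptor of heart and smooth muscle. The gut wall holds mesenchyme, smooth muscle and enteric neurons beneath its epithelium, and none of these miRNAs marks only 1 of them. Markers of stromal cells were not part of the table, so the label stromal rests on this background and not on these data.

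The mature sequences are shown because they fix which arm was counted. They were read from the deposited table, under chicken names, 5′ to 3′ with the seed in capitals.
miR-199-5p: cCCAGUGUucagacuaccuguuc
miR-199-3p: uACAGUAGucugcacauugg
miR-214: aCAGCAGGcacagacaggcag
miR-218-5p: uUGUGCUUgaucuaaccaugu
miR-140-5p: aGUGGUUUuacccuaugguag
miR-140-3p: cCACAGGGuagaaccacggac
miR-455-5p: uAUGUGCCcuuggacuacaucg
miR-455-3p: uGCAGUCCaugggcauauacac
miR-490-5p: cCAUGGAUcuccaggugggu
miR-490-3p: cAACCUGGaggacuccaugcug

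The 10 strands carried 10 distinct seeds, so they do not form a seed family, and 0 of the 10 seeds recurred in any other row of the table, predicted miRNAs included. Lengths ran from 20 to 23 nt and the GC content from 38.1% in miR-218-5p to 61.9% in miR-140-3p and miR-214. Uracil was the first base of 4 of the 10, and of 45.1% of all listed strands. On the same strand, the closest other row to any member was novel_5, which differed from miR-455-3p at 4 positions of an ungapped overlap of at least 16 nt, and the remaining 9 members had at least 5 mismatches to every other row. The miR-199 and miR-218 rows are placed under hairpin copies numbered 2, and counts from another copy with the same mature strand would fall in the same row.

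The hairpins of the miR-199 and miR-214 pair and of miR-140 are shown with each listed mature arm in capitals, because the comparisons of partners and of arms rest on them.
miR-199-2 hairpin: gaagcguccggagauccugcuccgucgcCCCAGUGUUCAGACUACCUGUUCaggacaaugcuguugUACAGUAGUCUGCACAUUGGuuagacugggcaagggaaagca
miR-214 hairpin: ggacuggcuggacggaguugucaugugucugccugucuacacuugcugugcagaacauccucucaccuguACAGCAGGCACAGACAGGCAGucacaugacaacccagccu
miR-140 hairpin: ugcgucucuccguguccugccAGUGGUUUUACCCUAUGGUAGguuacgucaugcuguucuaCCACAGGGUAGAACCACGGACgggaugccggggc

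The miR-199 hairpin is 108 nt long, with the 5p arm at bases 29 to 51 and the 3p arm at 67 to 86. The single miR-214 row sits at bases 71 to 91 of 110, on the 3′ side of its hairpin, and miR-218-5p at bases 12 to 32 of 95, on the 5′ side. The opposite arms of miR-214 and miR-218 were not listed, so arm balance could be read for 4 of the 6 hairpins.

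Together the 10 arms made up 1.05% of CC (interval 1.05 to 1.06%) and 0.840% of CT (0.832 to 0.848%). Their summed level was 10540 CPM in CC against 8398 CPM for CT, 1.26-fold lower in CT (1.24 to 1.27). The sum includes the 4 arms named for low ratios, so the choice favoured a lower value in CT. Of those, miR-218-5p alone had 2872 CPM in CC against 1582 CPM for CT. Levels within the group spanned a wide range, with the highest arm 422-fold above the lowest in CC and 610-fold in CT. The 2 miR-199 arms, miR-218-5p and miR-140-3p held 95.1% of the group's counts in CC and 95.6% in CT, so the sum mainly describes these 4 arms.

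The mesenchymal miR-199 gave the most abundant arm in both libraries. miR-199-5p had 17289 counts in CC and 12808 in CT, or 2995 CPM and 2429 CPM. miR-199-3p had 14208 and 11118 counts, or 2461 CPM and 2109 CPM. Among all 288 miRNAs, miR-199-5p stood at rank 26 in CC and 29 in CT, so this stromal miRNA was well measured beside the epithelial miRNAs that dominate the tissue. miR-214, its partner in the cluster, was far scarcer, with 860 counts in CC and 469 in CT, or 149 CPM and 88.9 CPM.

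miR-218-5p, which in mouse represses receptors for the SLIT ligands whose genes carry it, had 16579 counts in CC and 8343 in CT. The CC level of 2872 CPM (2829 to 2916) stood beside 1582 CPM for CT (1549 to 1617). It was the second of the 10 arms in CC and the fourth in CT, below miR-199-3p and miR-140-3p there. Of the group's counts it made up 27.2% in CC and 18.8% in CT.

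The cartilage-associated miR-140 was represented mainly by its 3p arm. miR-140-3p had 9762 counts in CC and 10053 in CT, or 1691 CPM and 1907 CPM. miR-140-5p had 1259 and 934 counts, or 218.1 CPM and 177 CPM. miR-455, the other miRNA known from cartilage, was led by its 5p arm, with 529 counts in CC and 292 in CT, or 91.6 CPM and 55.4 CPM. miR-455-3p had 70 and 54 counts, or 12.1 CPM and 10.2 CPM. The intervals, 9.45 to 15.3 CPM for CC against 7.69 to 13.4 CPM for CT, overlapped widely.

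miR-490, carried by the muscarinic receptor gene, was the least abundant hairpin. miR-490-3p had 246 counts in CC and 190 in CT, or 42.6 CPM and 36.0 CPM. miR-490-5p had 41 and 21 counts, or 7.10 CPM and 3.98 CPM. Neighbours in the order of levels had intervals that did not overlap, except miR-455-3p and miR-490-5p in CC.

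**Figure D1:**
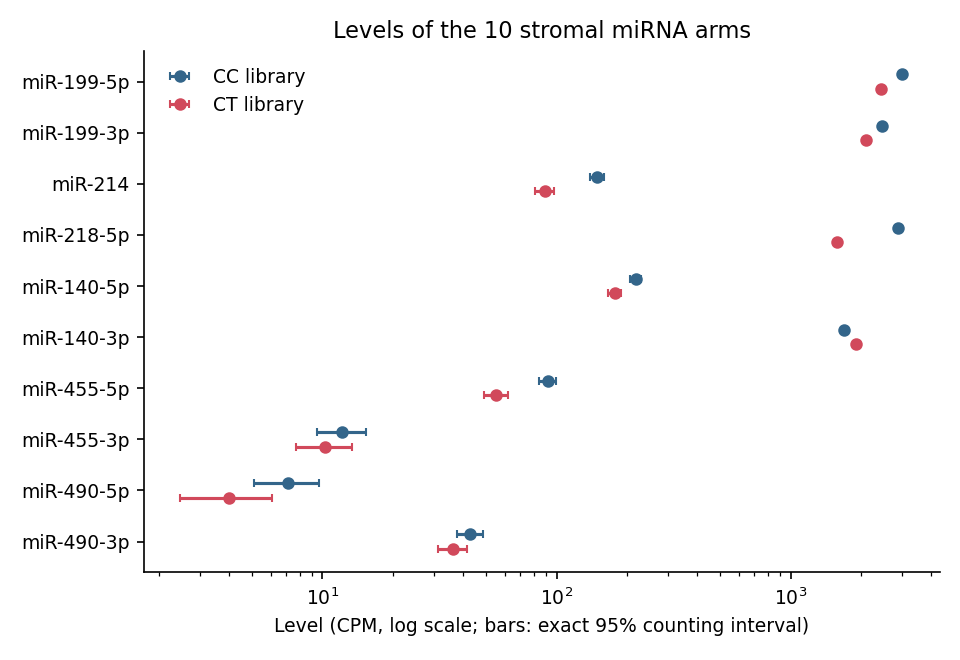
Level of each stromal arm in CPM (horizontal log axis) in the CC library (blue) and the CT library (red), with exact 95% counting intervals as bars. The miR-199 arms, miR-218-5p and miR-140-3p lie at 1582 CPM or more in both libraries, and miR-140-3p is the only arm with its CT point to the right of its CC point.

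CT was then set against CC arm by arm. Of the 10 members, 9 were lower in CT and 1, miR-140-3p, was higher, where 47.0% of the 149 miRNAs that reached 50 counts in the libraries together were lower. On the log2 scale the group's median ratio was -0.30, beside 0.02 over the 149 (quartiles at -0.25 and 0.36). A difference of at least 2-fold, the rule of size used here, was reached by 0 of the 10, against 7.38% of the 149. All 10 members passed the minimum of 50 counts, although miR-490-5p did so with only 62. Since the grouping started from low ratios, nothing is read from its counts against these shares.

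The 4 arms named for low ratios were between 1.65-fold and 1.82-fold lower in CT. miR-218-5p was 1.82-fold lower (1.77 to 1.86), the fourth lowest ratio of the 149, and its CPM intervals lay far apart. miR-490-5p had the fifth lowest ratio, 1.78-fold lower, but with 21 counts in CT its interval ran from 1.03 to 3.18. miR-214 was 1.67-fold lower (1.49 to 1.88) and miR-455-5p 1.65-fold lower (1.43 to 1.92), the eighth and ninth lowest. A cut of 1.5-fold lower holds these 4 and 0 of the 6 other arms, and 7.38% of the 149.

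The 6 other arms of the group differed less, with a median log2 ratio of -0.24. miR-199-5p was 1.23-fold lower in CT (1.21 to 1.26), miR-199-3p 1.17-fold lower (1.14 to 1.20) and miR-140-5p 1.23-fold lower (1.13 to 1.34). These 3 intervals excluded a ratio of 1. Those of the scarce arms did not: miR-490-3p had a log2 ratio of -0.24 (-0.52 to 0.04) and miR-455-3p also -0.24 (-0.78 to 0.29). miR-140-3p was 1.13-fold higher in CT (1.10 to 1.16). Over the whole group, 8 of 10 intervals excluded a ratio of 1, against 68.5% of the 149. For 7 of the 10 the whole interval lay below 1, against 33.6% of the 149. Of these 7, 4 were the arms named for low ratios, so nothing is read from this count. Such an interval states only that the libraries differ beyond counting error.

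**Figure D2:**
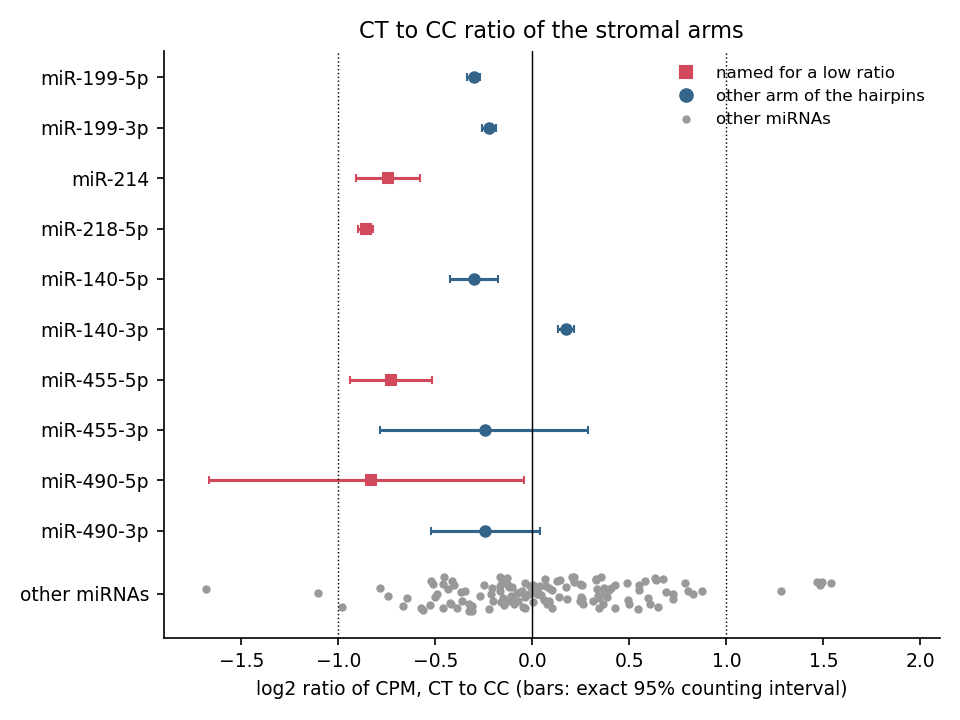
log2 ratio of CT to CC for each stromal arm with its exact 95% counting interval, and below them the other miRNAs with at least 50 counts as grey points (135 drawn, 3 more lie beyond the right edge). Squares are the 4 arms named for a low ratio, all between -0.73 and -0.86, circles are the remaining arms, and dotted lines mark 2-fold.

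The rows of the cluster partners miR-199 and miR-214 were lower in CT together, but by different amounts. Counts of another miR-199 copy would fall in the same miR-199 rows, so the comparison may not be of the cluster alone. CC held 4.97 counts of miR-214 for every 100 of miR-199-5p (4.64 to 5.33), and CT held 3.66 (3.33 to 4.02). Against miR-199-3p the numbers were 6.05 in CC (5.64 to 6.48) and 4.22 in CT (3.84 to 4.63). The intervals of the libraries did not overlap for either arm. miR-214 was thus 1.36-fold lower in CT relative to miR-199-5p (1.21 to 1.53) and 1.43-fold lower relative to miR-199-3p (1.28 to 1.61), values within a library that do not depend on how the libraries are scaled. The miR-199 arms kept closer to each other, with 82.2 counts of the 3p arm per 100 of the 5p arm in CC and 86.8 in CT. miR-214 was one of the arms named for a low ratio and miR-199 was not, so a gap in this direction was favoured by the choice.

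miR-214 stayed nearer to miR-218-5p, which is transcribed from another place. CC held 5.19 counts of miR-214 per 100 of miR-218-5p (4.84 to 5.56) and CT held 5.62 (5.11 to 6.17), with overlapping intervals. Both of these arms were named for a low ratio, so the choice favoured their closeness, and nothing is read from it. miR-218-5p itself had 95.9 counts per 100 of miR-199-5p in CC (93.9 to 98.0) and 65.1 in CT (63.4 to 67.0). These arms, the highest 2 of the group in CC, were thus nearly level there and apart in CT. As with miR-214, only miR-218-5p of the pair was named for a low ratio, so the choice favoured this gap.

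**Figure D3:**
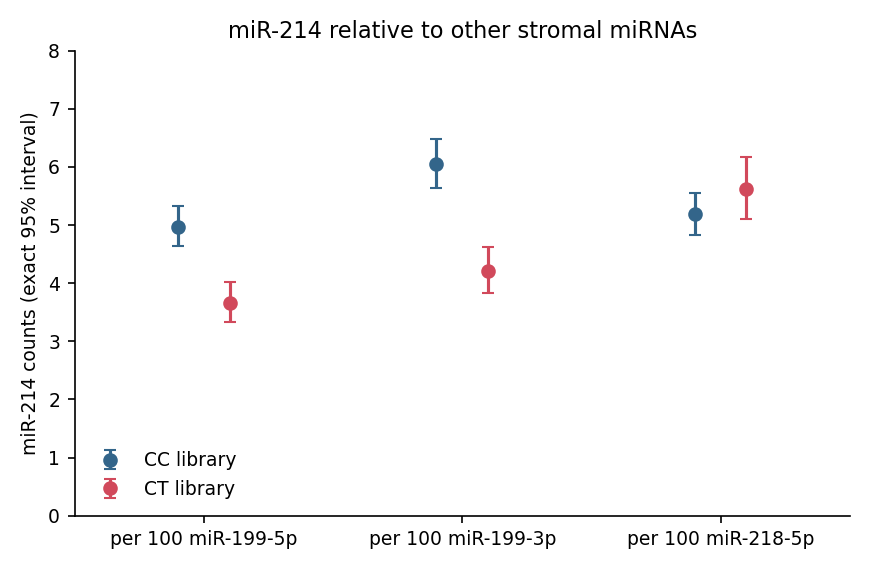
Counts of miR-214 per 100 counts of miR-199-5p, miR-199-3p and miR-218-5p within the CC library (blue) and the CT library (red), with exact 95% intervals. The CT value is lower against both miR-199 arms (3.66 beside 4.97 and 4.22 beside 6.05), and the intervals overlap against miR-218-5p. miR-214 and miR-218-5p, but not the miR-199 arms, were named for a low ratio, which favoured this pattern.

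The arms of a hairpin share 1 precursor, so their balance is a measure within a library. The miR-199 rows could also hold counts of another copy, so their balance may not be that of a single hairpin. In all 4 hairpins with both arms listed, the 5p arm took a smaller share in CT than in CC, as it did in 58.6% of the 70 hairpins of the table with both arms and at least 50 counts. The share was lower with exact intervals apart in 2 of the 4, miR-140 and miR-199, against 8.57% of the 70. Whether intervals lie apart depends on a hairpin's counts, which were high for miR-140 (22008 over both libraries) and miR-199 (55423). The 70 were not matched for counts, so nothing is read from this difference. For miR-455 and miR-490 the direction was favoured by the choice of their 5p arms for low ratios, whereas neither arm of miR-140 or miR-199 was chosen so.

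miR-140 showed the clearer difference of the 2, and its arms went opposite ways. The 5p arm's part of the hairpin was 11.4% in CC (10.8 to 12.0%) against 8.50% for CT (7.99 to 9.04%), a difference of -2.92 percentage points. The odds of the 5p arm against the 3p arm were 1.39-fold lower in CT (1.27 to 1.52). Summed over both arms, the miR-140 hairpin had 11021 counts in CC and 10987 in CT, a log2 ratio of 0.13 (0.09 to 0.16), the only one of the 6 hairpins above 0. The miR-199 hairpin was balanced between its arms, with a 5p share of 54.9% in CC (54.3 to 55.4%) and 53.5% in CT (52.9 to 54.2%). That difference of -1.36 points is small, and its odds were 1.06-fold lower (1.02 to 1.09).

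The scarcer hairpins had wider intervals that overlapped. For miR-455 the 5p arm gave 88.3% in CC (85.5 to 90.8%) against 84.4% for CT (80.1 to 88.1%). miR-490 gave 14.3% in CC (10.5 to 18.9%) and 9.95% in CT (6.27 to 14.8%), on 287 and 211 counts. The dominant arm of each hairpin was the same in both libraries, 5p for miR-199 and miR-455 and 3p for miR-140 and miR-490.

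**Figure D4:**
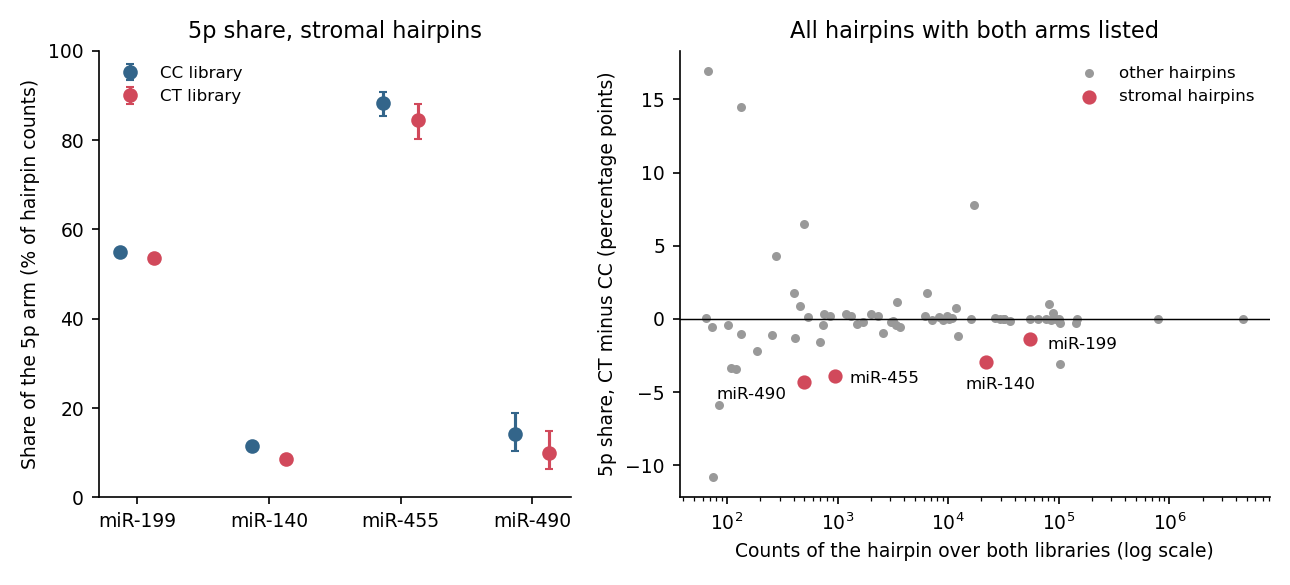
Left, share of the 5p arm in percent of the hairpin's counts in CC (blue) and CT (red) with exact 95% intervals. Right, the difference of that share, CT minus CC in percentage points, against the hairpin's counts (log axis) for 70 hairpins, with the 4 stromal hairpins in red at -1.36 to -4.33 points. For a hairpin with almost all counts on a single arm, the same change in odds gives a smaller difference in points. The 70 were not matched for this.

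Other miRNAs of the gut wall were set beside the stromal arms, as lists matched by name that were written with earlier results known. Of the muscle list (miR-1, miR-133 and miR-499, of contractile cells), 4 of 6 arms were lower in CT and 2 higher, 0 past 2-fold. The median log2 ratio was -0.14, with miR-1b-3p lowest at -0.52. This list also named miR-143, miR-145 and miR-208, which had no row in the data, and miR-206, with 1 count in CC and 0 in CT. A list of miRNAs linked to fibrosis and matrix (miR-21, miR-22, miR-23b, miR-24, miR-27b and miR-30a) had 6 of 10 lower and 4 higher, 0 past 2-fold, a median of -0.09 and a range from -0.65 for miR-21-3p to 0.34 for miR-30a-5p. The HOX-linked list, joined by miR-100, miR-99a and miR-125b, had 6 of 7 lower, 0 past 2-fold and a median of -0.39, with miR-99a-5p lowest at -0.74. Of the 3 medians only the HOX-linked one lay below the stromal median of -0.30. That stromal median includes the 4 arms named for low ratios, and the median of the 6 other arms was -0.24. Sums over all rows of a list gave another order. Their log2 ratios were -0.42 for muscle, -0.15 for the fibrosis-linked list and -0.45 for the HOX-linked list, beside -0.33 for the stromal sum. With no minimum beyond 1 count in each library the HOX-linked median was -0.16, with muscle at -0.05 and the fibrosis-linked list at 0.13. In the fibrosis-linked list that setting brought in miR-29 rows, miR-24-5p (0.58) and miR-23b-5p (-1.23), all with low counts.

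Markers of other cell types also differed between the libraries. Both arms of the endothelial miR-126 were lower in CT (summed level 9301 CPM in CC against 5451 CPM for CT). The log2 ratio was -0.79 for miR-126-3p and -0.13 for miR-126-5p (-0.27 to 0.01), whose interval included a ratio of 1. Their median of -0.46 also lay below the stromal median. The epithelial list had 8 of 10 arms higher and 2 lower, with a median log2 ratio of 0.54. Its highest arm, miR-375 at 1.48, was the only one past 2-fold, and its lowest was miR-203a at -0.45. The summed level of this list was 454767 CPM in CC against 512643 CPM for CT. The list named miR-205 without a letter, so 2 rows were not matched. These were miR-205a (110 counts in CC and 153 in CT, log2 ratio 0.61) and the scarce miR-205b (23 and 6 counts). The leukocyte list had 2 of 3 arms higher, both of them arms of miR-142 (0.33 and 0.34), and miR-223 lowest at -0.98. Its summed level was 127.8 CPM in CC against 145.3 CPM for CT. Also on this list were miR-155, with 1 count in each library, and miR-150, which had no row. miR-216 and miR-217, known from acinar cells of the pancreas, summed to 54.9 CPM in CC against 2563 CPM for CT. Of that list 4 arms reached 50 counts and all 4 were past 2-fold, with miR-216c, at 0 counts in CC, set to a floor of 3 counts. The part of these markers in the stromal ratios was not tested.

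**Figure D5:**
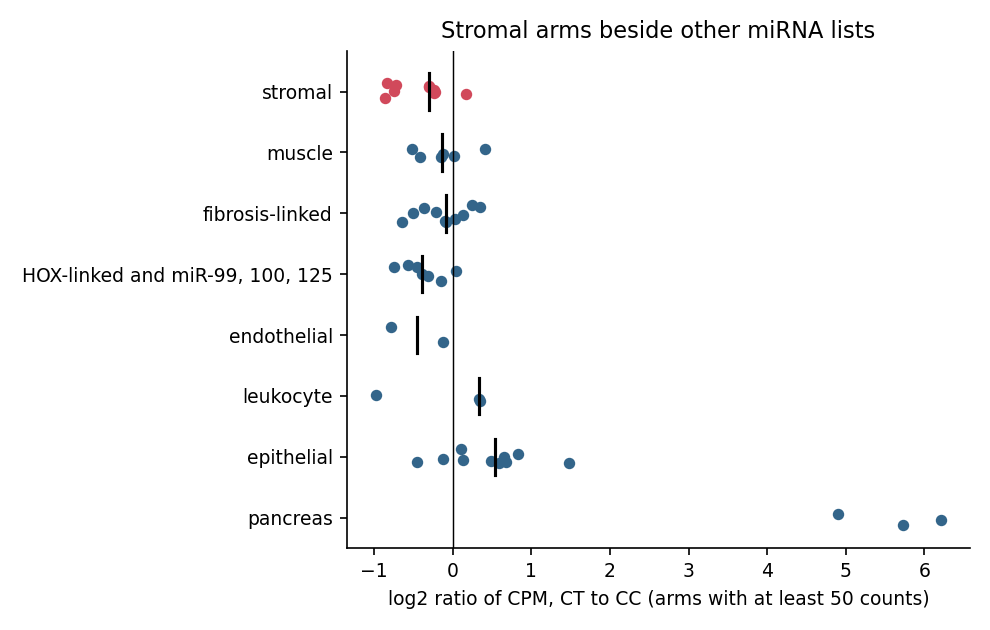
log2 ratio of CT to CC for each arm with at least 50 counts, by list, with vertical bars at the list median (none drawn for the pancreas list, where miR-216c had 0 counts in CC and is not plotted). The stromal arms centre on -0.30, the epithelial arms on 0.54, and the pancreatic arms lie above 4.9. The stromal arms include the 4 named for a low ratio, which favoured a low median, and the 6 others had a median of -0.24.

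The ratio of the summed stromal arms, a log2 ratio of -0.33 (-0.35 to -0.31), was closest to that of 5 other miRNAs, likeness being the smallest absolute difference in log2 ratio over the 2 libraries. These were miR-181a-3p (-0.33), miR-26a-5p (-0.33), novel_30 (-0.31), miR-100-5p (-0.31) and miR-9-3p (-0.35). miR-26a-5p and miR-100-5p were abundant, at 9373 CPM and 6503 CPM in CC, whereas miR-9-3p had 99 counts in CC and 71 in CT with an interval from -0.81 to 0.11. With 2 libraries, such closeness describes only 1 ratio per miRNA. The sum also holds the 4 arms named for low ratios, so the choice favoured its low value.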

How the data were processed

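Trizol RNA (10 µg) was cut to a size of 20 to 30 nt on a 15% TBE-urea gel and made into standard Illumina libraries, per the labels' protocols. The authors deposited read counts per mature miRNA and TPM values, per the file headers, for 246 chicken-named and 42 predicted rows. The deposited TPM equals the count per 1000000 counts of the library within 4.3e-05. The sources used here give no aligner, predictor, miRNA database release or genome build, nor whether chicken or duck sequences were matched.

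CPM was computed from the counts. Ratios carry exact conditional (Clopper-Pearson) 95% intervals, shares exact binomial intervals, and odds between arms or partners the conditional exact interval. Without molecular identifiers, intervals cover counting error only. Ratios were compared for miRNAs that reached 50 counts in the libraries together, with a 2-fold rule. A count of 0 was set to a floor of 3 counts, except with no minimum, where only rows with at least 1 count in each library were kept. Alternatives were TMM factors (edgeR 4.0.16), totals without the 10 most abundant miRNAs, size factors (DESeq2 1.42.0), a pseudocount of 5 CPM, other minimums and a 1.5-fold rule. Python 3.11.15, scipy 1.17.1 and R 4.3.3 were used, and the intervals were tested on simulated data. Every listed arm was named by rule, as were the 5 nearest miRNAs, predicted rows sharing a seed (there were 0) and the lowest and highest miRNA of a list. novel_5 and others given beside them were chosen after their values were seen. Members and lists were chosen with earlier results of these data known.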

Additional observations from a re-analysis of the deposited data

How the results depend on the processing

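No paired analysis was possible because each group has 1 library, and no library could be left out. TMM shifted every log2 ratio by -0.05, size factors by -0.06 and totals without the 10 most abundant miRNAs by 0.06. The log2 ratio of the summed stromal arms, -0.33, was -0.37 with TMM, -0.39 with size factors and -0.27 without the 10 most abundant, all outside its counting interval, and -0.34 without miR-199-5p. It was -0.45 without miR-140-3p, the single arm higher in CT, a setting chosen after seeing the data and a larger move than any scaling gave. All of these sums kept the 4 arms named for low ratios, miR-218-5p among them, which favoured a lower ratio. Those 4 held 18009 counts in CC and 9125 in CT, and the 6 other arms 42834 and 35157. A ratio of the sum without miR-218-5p, or without all 4, was not computed. Of 40 recomputed ratios of single arms, 28 stayed within their intervals and 0 changed sign. The 12 outside were all scalings of miR-199-5p, miR-199-3p, miR-218-5p and miR-140-3p, so their narrow counting intervals leave out the uncertainty of scaling. With the pseudocount, miR-490-5p had a log2 ratio of -0.43 in place of -0.83. That lay within its wide interval but short of 1.5-fold lower. The number of arms at least 2-fold lower was 0 under all scalings and minimums tried and 4 with the 1.5-fold rule. With no minimum beyond 1 count in each library, the median log2 ratio of the fibrosis-linked list was 0.13 in place of -0.09, and that of the HOX-linked list -0.16. With both miR-199 arms summed, the log2 difference of miR-214 from miR-199 was -0.48. Low counts limit miR-490-5p and miR-455-3p, and 1 library per group limits every comparison.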
